A study of Mus musculus with 6 samples.

Results

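The cells described here are 102 cycling CD4+ conventional T (Tconv) cells from mouse B16-F10 melanomas, found among 1205 CD4+ Tconv cells and 12818 sorted T cells in all. A CD4+ Tconv cell held at least 1 unique molecular identifier (UMI, 1 counted transcript molecule) of Cd4 and none of Cd8a, Cd8b1 or Foxp3. It was called cycling when it held UMIs of at least 2 of the 5 genes Mki67, Top2a, Cdk1, Birc5 and Ccna2, so the cells were chosen by their own transcript counts. The 1021 CD4+ Tconv cells with no UMI of the 5 genes served as non-cycling cells, and the 82 cells with exactly 1 of the genes belonged to neither group. All 102 cycling cells held a UMI of at least 1 of 6 T cell identity genes (Cd3e, Cd3d, Cd3g, Trac, Trbc1 and Trbc2), as did 984 of the 1021 non-cycling cells. Pmel, Mlana, Dct and Tyrp1, which mark melanoma cells, were at 0 in both groups. Of the other lineages, the cycling cells held 1 myeloid UMI, 1 natural killer (NK) cell UMI, 1 stromal UMI and 0 B cell UMIs, but just 2 of the 7 myeloid, 2 of the 4 B cell and 2 of the 4 stromal markers were in the table.

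The animals were Foxp3-EGFP-DTR mice, in which the endogenous Foxp3 gene also drives EGFP and the human receptor for diphtheria toxin (DTx), and Treg cells can be depleted by giving the toxin. They carried subcutaneous tumors of B16-F10, a mouse melanoma line, and received PBS in 3 samples or DTx in 3 samples. Live TCR-b+ T cells were sorted from the tumors and profiled with droplet chemistry that reads the 5′ end of transcripts. Each cell carries a library number from 1 to 6 and no label links a number to a sample, so PBS and DTx could not be compared and 0 cells were assigned to a treatment. The libraries were kept as 6 strata of unknown treatment. No p-value was computed, since cells of 1 library are not replicates. The 95% intervals below cover counting error only. The 102 cells held between 1330 and 11096 UMIs each (median 4847) and up to 2492 genes, just under the upper limit of genes per cell stated in the study's methods, so larger cells of this kind may have been removed before deposit. Of the barcodes, 76 were found in more than 1 library, and 1 cycling cell carried such a barcode.

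A dividing T cell passes through S phase, in which DNA is copied, and then through G2 and mitosis, in which the copies are parted. Genes of S phase are largely switched on by E2F factors when the retinoblastoma proteins are inactivated, whereas many G2/M genes are released later from repression by the DREAM complex and driven by B-MYB and FOXM1. Antigen-activated CD4+ T cells divide in clonal bursts, and resting T cells are held out of the cycle by quiescence factors such as KLF2, FOXO1 and the BTG and TOB proteins. Of the genes of the rule, Mki67 encodes the Ki-67 coat protein of mitotic chromosomes, Top2a a topoisomerase that untangles DNA, Cdk1 the kinase that starts mitosis, Birc5 the chromosomal passenger protein survivin and Ccna2 cyclin A2.

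The promoters of Mki67, Top2a, Cdk1 and Birc5, 4 of the 5 rule genes, are shown because the cells were defined by these genes, and to set their motifs beside those of the lists below. In GRCm38 the genes lie at chr7:135689784-135716361, minus strand (Mki67), chr11:98992943-99024189, minus strand (Top2a), chr10:69335146-69352938, minus strand (Cdk1), chr11:117849251-117855743, plus strand (Birc5) and chr3:36564865-36572150, minus strand (Ccna2). The 150 bases before the start site, from RefSeq on GRCm38.p6, are given 5′ to 3′ on the gene's strand for Mki67 (chr7:135716380-135716529, minus strand), Top2a (chr11:99024190-99024339, minus strand), Cdk1 (chr10:69352913-69353062, minus strand) and Birc5 (chr11:117849087-117849236, plus strand). Capitals mark matches on either strand to the cell cycle homology region (CHR, TTTGAA), the CCAAT box (CCAAT) and the E2F motif (GCGGGAA or GCGCGAA).
Mki67: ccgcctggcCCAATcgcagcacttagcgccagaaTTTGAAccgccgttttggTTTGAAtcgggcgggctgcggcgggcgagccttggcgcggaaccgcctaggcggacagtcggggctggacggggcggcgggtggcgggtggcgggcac
Top2a: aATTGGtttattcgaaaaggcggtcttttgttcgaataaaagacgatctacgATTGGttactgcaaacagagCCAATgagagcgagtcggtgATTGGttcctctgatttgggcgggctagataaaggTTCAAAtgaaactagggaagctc
Cdk1: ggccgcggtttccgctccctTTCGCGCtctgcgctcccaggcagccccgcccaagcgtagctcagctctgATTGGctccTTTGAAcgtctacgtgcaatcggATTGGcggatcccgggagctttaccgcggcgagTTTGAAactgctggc
Birc5: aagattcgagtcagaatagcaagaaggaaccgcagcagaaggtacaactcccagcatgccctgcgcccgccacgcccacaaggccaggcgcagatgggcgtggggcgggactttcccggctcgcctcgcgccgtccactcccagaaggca

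In the Mki67 and Cdk1 promoters a CCAAT match lies just upstream of a CHR match, and the Top2a promoter holds 4 CCAAT matches upstream of its CHR match. Birc5 held none of the motifs in the 300 bases searched around its start site (250 before and 50 after). Over the same 300 bases, 20.2% of 27025 RefSeq genes held a CHR match, 41.1% a CCAAT match, 6.86% an E2F match and 7.97% both CHR and CCAAT. Of the 47 genes of the G2/M list with a promoter in the table, 32 (68.1%) held CHR, 36 (76.6%) CCAAT and 25 (53.2%) both, while 4 (8.51%) held the E2F motif. Of the 33 S phase genes with a promoter, 21 (63.6%) held the E2F motif and 6 (18.2%) held CHR. Of 15 quiescence and homing genes, 2 held CHR and 2 held E2F. CCAAT was also common in these lists, in 24 S phase genes (72.7%) and 10 quiescence and homing genes (66.7%). These matches describe letters in a window and are not measured binding sites.

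The cycling cells were spread unevenly over the libraries. Libraries 1, 2 and 3 gave 3 of 145, 2 of 151 and 1 of 123 CD4+ Tconv cells, and libraries 4, 5 and 6 gave 26 of 305, 55 of 293 and 15 of 188. The share was 8.52% (exact Clopper-Pearson 95% interval 5.64 to 12.2%) in library 4, 18.8% (14.5 to 23.7%) in library 5 and 7.98% (4.53 to 12.8%) in library 6, and between 0.813% and 2.07% in libraries 1 to 3. Pooled, it was 8.46% (6.95 to 10.2%), and without library 5 it was 5.15%. The interval of library 5 lay above those of the other 5 libraries, and those of libraries 4 and 6 overlapped. Depth differed along with the share, since the median CD4+ Tconv cell held 695 to 1090 UMIs in libraries 1 to 3 and 1256.5 to 2555 UMIs in libraries 4 to 6. With every cell thinned to 1000 UMIs and gated again, 22 of 518 CD4+ Tconv cells (4.25%) were cycling, with 4 of 138 (2.90%, 0.795 to 7.26%), 15 of 149 (10.1%, 5.74 to 16.1%) and 3 of 88 (3.41%, 0.709 to 9.64%) in libraries 4, 5 and 6. Library 5 kept the highest share at this depth, but its interval overlapped those of libraries 4 and 6. In libraries 1, 2 and 3 the thinned counts were 0 of 59, 0 of 62 and 0 of 22.

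CD8+ cells, gated by a Cd8a or Cd8b1 UMI with no Cd4 or Foxp3 UMI, gave 437 of 4497 cells by the same rule (9.72%, 8.87 to 10.6%). In libraries 4 and 5 the intervals of the CD4+ and CD8+ shares overlapped. In library 6 the CD8+ share was 19.5% (17.0 to 22.3%) against 7.98% (4.53 to 12.8%) in CD4+ Tconv cells, and after thinning to 1000 UMIs it was 11.7% (9.26 to 14.5%) against 3.41% (0.709 to 9.64%). Cells with UMIs of at least 3 of 6 naive T cell genes (among them Ccr7, Lef1, Tcf7, Klf2 and S1pr1), of any lineage, met the rule in 55 of 2158 cases (2.55%, median 1200 UMIs, against 1622 UMIs in CD4+ Tconv cells). This background share was 0.436 to 1.33% in libraries 1 to 3, overlapping the CD4+ Tconv intervals there, and 8.19%, 21.1% and 11.4% in libraries 4, 5 and 6, where the naive-gene cells were also deeper (medians 2989, 2929 and 2068.5 UMIs). The intervals of CD4+ Tconv and naive-gene cells overlapped in all 6 libraries. The groups share members, since 152 of the naive-gene cells were CD4+ Tconv cells, 9 of them cycling. Thinned to 1000 UMIs and pooled over libraries, 3 of 798 naive-gene cells met the rule (0.376%, 0.0776 to 1.09%) against 4.25% (2.68 to 6.36%) of CD4+ Tconv cells. Most of those naive-gene cells came from libraries 1 to 3, and in libraries 4, 5 and 6 they gave 1 of 38, 1 of 14 and 0 of 7, too few to set apart from CD4+ Tconv cells of the same library.

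**Figure D1:**
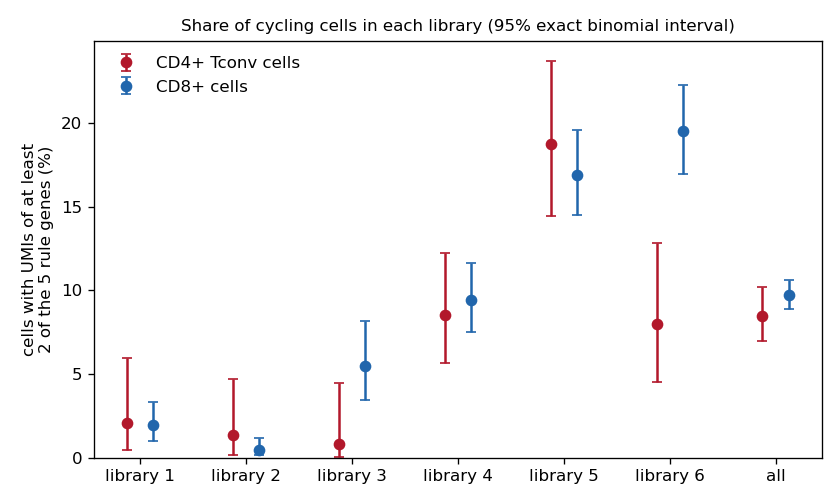
Share of cells with UMIs of at least 2 of the 5 rule genes (y axis, %) in each library and over all libraries (x axis), for CD4+ Tconv cells (red) and CD8+ cells (blue). Points are shares and bars are exact 95% binomial intervals. Library 5 had the highest CD4+ Tconv share at 18.8%, and in library 6 the CD8+ share of 19.5% lay above the CD4+ Tconv share of 7.98%.

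Within the 102 cells, Birc5 was detected in 86, Mki67 in 82, Top2a in 76, Cdk1 in 58 and Ccna2 in 56. The pair seen together most often was Mki67 with Birc5 (69 cells), and the rarest pair was Cdk1 with Ccna2 (35 cells). All 5 genes were present in 28 cells, 4 genes in 24, 3 genes in 22 and exactly 2 genes in 28. Cells just inside the rule (2 genes) held 121 UMIs of the G2/M list and 30.3 of the S phase list per 10000 UMIs. Cells just outside it (1 gene) held 56.5 and 14.6, and non-cycling cells 29.8 and 8.02. The rule genes are left out of both lists. Median depth was 1455 UMIs at 0 genes, 2468.5 at 1 gene, 4377 at 2 genes, 3491 at 3 genes, 5202.5 at 4 genes and 5764 at 5 genes.

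Over the cycling cells the G2/M level was 182 per 10000 and the S phase level 30.2 per 10000. Between cells with 2 and with all 5 rule genes, the G2/M level went from 121 to 230 per 10000 and the S phase level from 30.3 to 35.2, with 25.1 in cells with 4 genes. The G2/M share of the S phase and G2/M UMIs of a cycling cell had a median of 87.7% and ranged from 43.0 to 99.3% in the 100 cells with at least 10 such UMIs. By the same minimum the median was 81.8% in non-cycling cells and 83.8% in cycling CD8+ cells. A high G2/M share was thus not particular to the cycling cells. In cycling cells of libraries 4, 5 and 6 the G2/M levels were 180, 198 and 149 per 10000 and the S phase levels 25.6, 33.4 and 19.8, so both were lowest in library 6. Cycling CD8+ cells held 160 G2/M and 34.8 S phase UMIs per 10000. The rule genes themselves belong to the G2/M programme, so these levels describe how the cells were chosen.

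**Figure D2:**
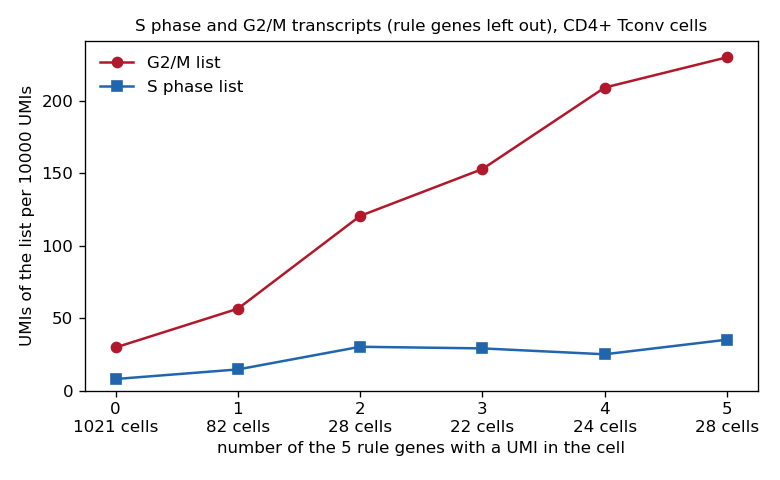
UMIs of the G2/M list (red) and of the S phase list (blue) per 10000 UMIs (y axis), summed over CD4+ Tconv cells with 0 to 5 of the rule genes (x axis, with the number of cells). The rule genes are left out of both lists. The G2/M level went from 29.8 in cells with 0 genes to 230 in cells with 5, and the S phase level from 8.02 to 35.2.

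Genes were compared between cycling and non-cycling cells of the same library by a Mantel-Haenszel ratio of UMI shares, given on the log2 scale, for 7468 genes with at least 20 UMIs over both groups. The ratios are a description of cells chosen by 5 cell cycle genes and carry no test. A lower ratio means a smaller share of the UMIs and not fewer UMIs per cell. Of these genes, 595 (7.97%) were over 2-fold higher and 810 (10.8%) over 2-fold lower in cycling cells, and the median over all genes was -0.08. Libraries 4, 5 and 6 had at least 10 cells of both groups. Of the 595 higher genes, 459 were higher in each of these libraries that held a UMI of the gene, and for 524 the interval excluded equality. Of the 810 lower genes, 640 were lower in each of these libraries that held a UMI of the gene, and the interval excluded equality for 364. Cycling cells were deeper (median 4847 against 1455 UMIs), so the ratio was also taken within quartiles of depth in each library, where 605 genes (8.10%) were over 2-fold higher and 779 (10.4%) over 2-fold lower. Of the 595 and 810 genes, 434 and 568 were past 2-fold in the same direction there. A gene seen mainly in cycling cells could pass the 20 UMI minimum through those cells alone, and such a gene had to be higher.

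**Figure D3:**
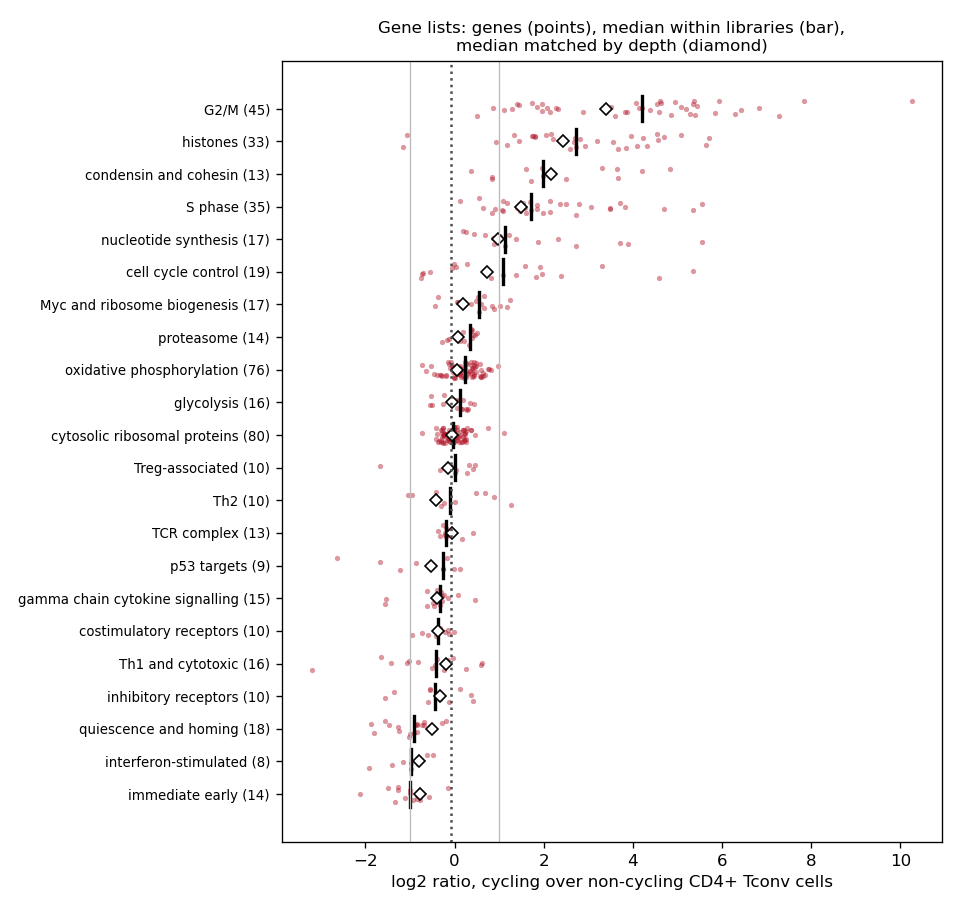
Log2 ratio of cycling over non-cycling CD4+ Tconv cells (x axis) for the genes of each list (y axis, number of genes compared in parentheses). Points are genes, black bars the list median within libraries, diamonds the median within quartiles of depth, the dotted line the median of all genes (-0.08) and grey lines mark 2-fold. The G2/M median was 4.22 and the immediate early median -0.997.

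Genes of G2 and mitosis stood highest. The cells were chosen by genes of this programme, so a higher level of the list was built into the choice. Its rank above the S phase list is thus no separate finding. Among all compared genes, 7.97% were over 2-fold higher within libraries. All 45 compared genes of the 56-gene G2/M list were higher in cycling cells and 43 were over 2-fold higher, with a median log2 ratio of 4.22 within libraries (95% order-statistic interval over its genes, which are not independent, 3.41 to 4.95, as after other list medians) and 3.39 within depth quartiles. Ube2c, the ubiquitin-conjugating enzyme of the anaphase-promoting complex, was at 6.497, 9.35 and 6.12 UMIs per 10000 in cycling cells of libraries 4, 5 and 6 and at 0.0584, 0.146 and 0 in non-cycling cells. Its log2 ratio was 6.30 (5.47 to 7.12), and 76 of the 102 cells held it. Cenpf, a kinetochore protein, was at 2.41, 2.99 and 0.360 against 0.0146, 0.0209 and 0 per 10000, so it was higher in each library but lowest in library 6. Ccnb1 and Ccnb2, the B cyclins that activate CDK1, had log2 ratios of 5.35 (3.57 to 7.13) and 4.59 (3.77 to 5.42). Plk1, a kinase of mitotic entry, had 36 UMIs in cycling cells and 0 in non-cycling cells, at least 43.2-fold higher. Nusap1 and Cdc20 had 1 UMI each in non-cycling cells, with log2 ratios of 10.26 (2.79 to 17.73) and 7.84 (4.55 to 11.12). Plk1, Nusap1 and Cdc20 reached the UMI minimum wholly or almost wholly through the cycling cells, so they had to be higher. The abundant members were higher by less: Hmgb2, a chromatin protein found in all 102 cells, by 2.28 (2.19 to 2.38), the tubulins Tuba1b and Tubb5 by 3.51 and 2.88, and the histone variant H2afz by 1.73 (1.02 within depth quartiles).

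S phase genes were higher by less. All 35 compared genes of the 45 in the list were higher and 30 were over 2-fold higher, with a median of 1.71 (1.47 to 2.37) within libraries and 1.49 within depth quartiles. Rrm2, the regulated subunit of ribonucleotide reductase, was at 1.79, 2.23 and 1.08 per 10000 in cycling cells of libraries 4 to 6 and 0.0146, 0.0209 and 0.185 in non-cycling cells, with a log2 ratio of 5.54 (4.39 to 6.69). Of the MCM helicase subunits, Mcm7 had 2.49, Mcm5 2.15, Mcm3 1.59, Mcm4 1.57 and Mcm6 1.395, each with an interval above 0, while the interval of Mcm2 (0.64, -0.28 to 1.57) included equality. Pcna, the sliding clamp of replication, had 1.44 (1.01 to 1.88) and was detected in 44 of the 102 cells. Cdca7 had 1.09 within libraries and -0.02 within depth quartiles, so its direction was not kept. Of 17 compared nucleotide synthesis genes, which overlap the S phase list at Rrm1, Rrm2 and Tyms, 17 were higher and 11 over 2-fold, with a median of 1.14. Thymidine kinase (Tk1, 3.90, 3.04 to 4.77) and thymidylate synthase (Tyms, 2.73, 2.14 to 3.32) stood high, while the purine enzymes Paics (0.69), Gart (0.43) and Ppat (0.25) were under 2-fold.

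Of 33 compared replication histone genes, 30 were over 2-fold higher and 2 over 2-fold lower (Hist1h4n and Hist4h4, whose intervals included equality), with a median of 2.73. Without library 5 this median was 1.84. Hist1h2ae gave 916 UMIs in 78 cycling cells against 67 UMIs in non-cycling cells (5.64, 5.21 to 6.07), and the linker histone Hist1h1b gave 125 against 19 (3.95, 3.27 to 4.64). Histone genes of 1 class are near-identical copies whose reads the counting could split, and most of their mRNA lacks the poly(A) tail that capture relies on, so values of single histone genes are uncertain. Of 13 condensin and cohesin genes, 13 were higher and 10 over 2-fold, with a median of 1.99. The condensin core subunit Smc2 stood highest at 4.83 (3.77 to 5.90), whereas the cohesin subunits Smc3 (0.85), Stag1 (0.84) and Stag2 (0.36) were under 2-fold.

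Cyclins, kinases and inhibitors of the cycle did not share a direction. Of 19 compared control genes, 13 were higher (10 over 2-fold) and 6 lower, with a median of 1.08 (-0.06 to 1.97). The D cyclins, which act in G1, were lower: Ccnd2 was at 0.681, 0.757 and 0.720 per 10000 in cycling cells of libraries 4, 5 and 6 against 1.62, 1.30 and 1.20 in non-cycling cells (-0.74, -1.22 to -0.27), and Ccnd3 had -0.56 (-0.99 to -0.14). Ccnd1 had 0 UMIs in both groups. Cdk4, the partner of the D cyclins, was higher at 1.08 (0.68 to 1.48), and Cdk6 had 0.02 (-0.60 to 0.65). Cyclin E1 (Ccne1) gave 14 against 5 UMIs, a log2 ratio of 3.202 (1.71 to 4.70), below the 20 UMI minimum. Among inhibitors of CDK4 and CDK6, p18 (Cdkn2c) was higher at 3.31 (2.11 to 4.51) and p19 (Cdkn2d) at 0.82 (0.44 to 1.21). The CDK2 inhibitor p27 (Cdkn1b) was lower at -0.71 (-1.20 to -0.21), lower in libraries 4 and 5 and higher in library 6. For p21 (Cdkn1a) the ratio was -0.01 (-0.40 to 0.38), and in CD8+ cells it was 1.36. The pocket protein p130 (Rbl2), which acts in resting cells, had -0.74 (-1.43 to -0.04), and its relative p107 (Rbl1) had 1.82 (0.98 to 2.67).

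Outside the cell cycle lists, the 15 genes with the highest ratios whose direction was the same in libraries 4, 5 and 6 were Bub1b, Trip13, Esco2, Depdc1a, Ska1, Shcbp1, Aspm, Sgo1, Kif15, Spc24, Pbk, Pclaf, Spc25, Knl1 and Kif4. All 15 were over 2-fold higher within depth quartiles too, but these use the counts that ranked them. Each gene reached the 20 UMI minimum through the cycling cells alone (Bub1b had 26 against 1 UMI), so the matched values are no separate support. Most have known roles at the spindle or kinetochore, among them the checkpoint protein BUBR1 (Bub1b), the NDC80 complex subunits Spc24 and Spc25, the kinetochore scaffold Knl1 and the motor Kif15. Pclaf, a PCNA-binding protein, had the most UMIs of these (317 against 28), at 5.26, 7.12 and 6.48 per 10000 in cycling cells of libraries 4, 5 and 6 against 0.146, 0.104 and 0.277 in non-cycling cells (5.42, 4.75 to 6.08). Ska1 and Kif4 had 43 and 30 UMIs in cycling cells and 0 in non-cycling cells, at least 51.6-fold and 35.4-fold higher. Spc24 had 5.45 (4.07 to 6.82).

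Some genes with at least 100 UMIs outside the cell cycle lists are given as examples, chosen after their values were seen. H2afx, the histone variant phosphorylated at DNA breaks, had 3.48 (3.08 to 3.87), and the nucleosome-binding protein Hmgn2 had 2.82 (2.58 to 3.05). The maintenance DNA methyltransferase Dnmt1 had 1.91 (1.34 to 2.47), the Polycomb methyltransferase Ezh2 1.72 (1.14 to 2.29) and lamin B1 (Lmnb1) 1.89 (1.61 to 2.17). Within depth quartiles Ezh2 was at 0.98 and the other 4 genes between 1.71 and 3.46. Phgdh, the first enzyme of serine synthesis, had 2.08 (1.60 to 2.57, and 1.46 within depth quartiles), and Shmt2, which passes serine carbon to folate in mitochondria, had 2.32 (1.46 to 3.18). The nuclear transport GTPase Ran had 1.66 (1.45 to 1.87).

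Quiescence and homing genes were a lower share of the UMIs in cycling cells, which held more UMIs (median 4847 against 1455). The list gave 969 UMIs in 102 cycling cells and 8565 in 1021 non-cycling cells. Pooled over libraries, its UMIs per cell were thus not lower in cycling cells. All 18 genes of the list were lower in cycling cells and 7 were over 2-fold lower, with a median of -0.90 (-1.27 to -0.72) within libraries and -0.52 within depth quartiles. Of the 7, 4 were over 2-fold lower there as well. Over all compared genes, 10.8% were over 2-fold lower within libraries. Il7r, the IL-7 receptor of resting and memory T cells, was at 1.67, 1.63 and 1.08 per 10000 in cycling cells of libraries 4, 5 and 6 and 5.69, 4.24 and 2.72 in non-cycling cells, so the groups did not overlap. Its log2 ratio was -1.57 (-1.91 to -1.22) and -1.29 within depth quartiles. Txnip, an inhibitor of glucose uptake, was at 0.495, 1.098 and 0.540 against 2.77, 2.92 and 2.72 per 10000 (-1.88, -2.36 to -1.40, and -1.49 within depth quartiles). The antiproliferative genes Btg1 (-1.47, -1.67 to -1.27) and Tob1 (-1.80, -2.98 to -0.61) were lower as well, with -0.85 and -1.22 within depth quartiles. Klf2, a quiescence factor that drives S1pr1, had -1.02 (-1.34 to -0.69) within libraries and -0.27 within depth quartiles, and S1pr1, the receptor for exit from tissues, had -1.25 and -0.48. For the lymph node homing receptor Ccr7 the interval included equality (-0.18, -0.87 to 0.50).

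The lower levels were also seen as fewer cells with a UMI. With each cell thinned to 1000 UMIs, which left 102 cycling and 730 non-cycling cells pooled over libraries, Il7r was found in 12.7% (6.96 to 20.8%) of cycling and 29.7% (26.4 to 33.2%) of non-cycling cells. The thinned shares were 9.80% (4.80 to 17.3%) against 26.8% (23.7 to 30.2%) for Klf2 and 37.3% (27.9 to 47.4%) against 64.4% (60.8 to 67.9%) for Btg1, and the intervals did not overlap for these 3 genes. For Txnip they were 9.80% (4.80 to 17.3%) and 17.9% (15.2 to 20.9%), and for Tcf7, a factor of stem-like T cells, 2.94% (0.611 to 8.36%) and 8.77% (6.82 to 11.1%), with overlapping intervals. Non-cycling cells came more often from libraries 1 to 3 (401 of 1021) than cycling cells (6 of 102). In libraries 4 to 6 alone, a setting chosen after seeing the data, the thinned shares were 13.5% (7.41 to 22.0%) of 96 cycling and 28.9% (25.1 to 32.9%) of 540 non-cycling cells for Il7r and 37.5% (27.8 to 48.0%) and 61.7% (57.4 to 65.8%) for Btg1. For Klf2 they were 10.4% (5.11 to 18.3%) and 21.5% (18.1 to 25.2%), and these intervals overlapped. As deposited, the shares of Il7r were 40.2% and 40.6%, so the difference was not seen without thinning.

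**Figure D4:**
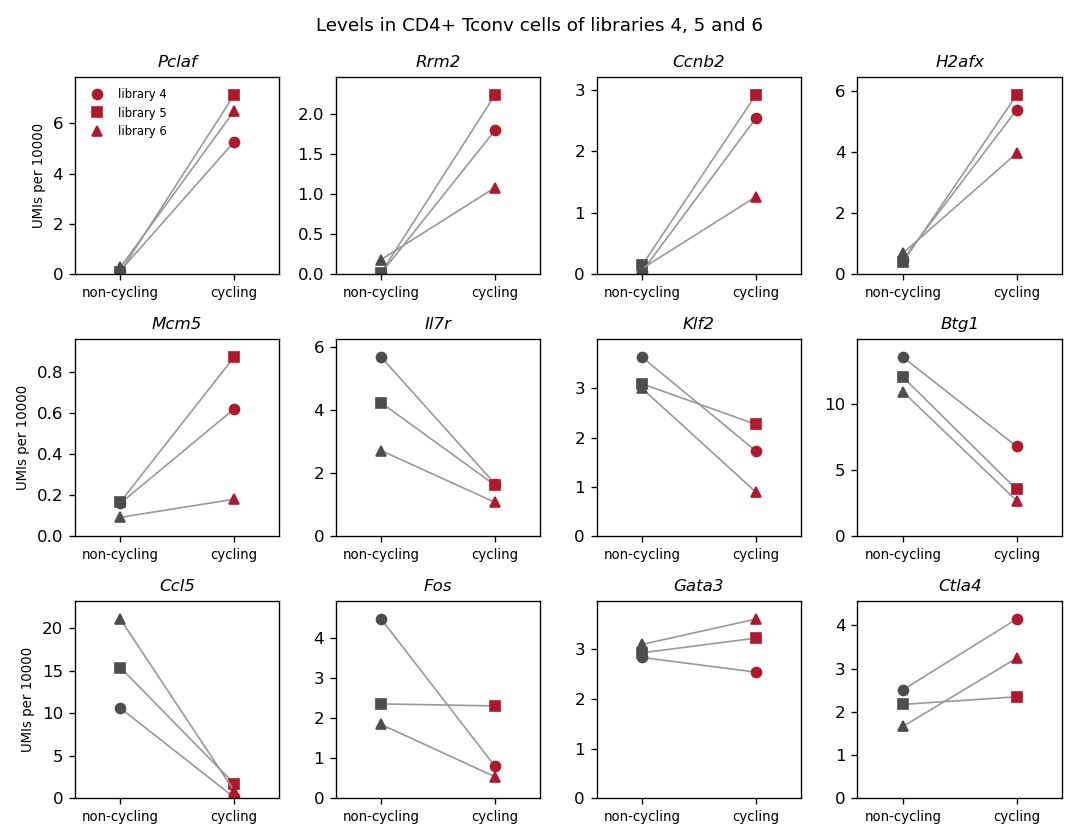
UMIs per 10000 (y axis, from 0) of 12 genes in non-cycling (grey) and cycling (red) CD4+ Tconv cells (x axis) of library 4 (circles), library 5 (squares) and library 6 (triangles). Lines join the groups of 1 library. Pclaf, Rrm2, Ccnb2, H2afx and Mcm5 were higher and Il7r, Klf2, Btg1, Ccl5 and Fos lower in cycling cells of each library, while Gata3 had no common direction.

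Immediate early genes, which are induced within minutes of receptor stimulation or cell stress, were a lower share of the UMIs too. They gave 2532 UMIs in 102 cycling cells and 19657 in 1021 non-cycling cells. Their UMIs per cell, pooled over libraries, were thus not lower in cycling cells. All 14 compared genes of the 16 in the list were lower and 7 were over 2-fold lower, with a median of -0.997 (-1.34 to -0.78) within libraries, -0.77 within depth quartiles and -0.69 without library 4. Of the 7, 2 were over 2-fold lower within depth quartiles as well. Over all compared genes, 10.8% were over 2-fold lower within libraries and 10.4% within depth quartiles. Egr1 was at 0.433, 0.606 and 0 per 10000 in cycling cells of libraries 4, 5 and 6 against 2.57, 1.44 and 1.94 in non-cycling cells (-2.11, -2.74 to -1.49). Zfp36, which targets cytokine mRNAs for decay, was at 1.18, 4.39 and 3.42 against 8.68, 7.21 and 7.66 (-1.502, -1.75 to -1.25). Fos was at 0.804, 2.31 and 0.540 against 4.48, 2.36 and 1.85, so most of its difference lay in libraries 4 and 6 and almost none in library 5. The list summed to 36.9, 57.6 and 47.9 per 10000 in cycling cells and 100.7, 81.0 and 79.0 in non-cycling cells of libraries 4, 5 and 6, with no overlap. In CD8+ cells the median of the list was -0.28, with Nr4a1 at 0.08 against -0.83 in CD4+ Tconv cells, and the difference between the lineages was not tested.

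The heat shock genes Hspa1a (-1.95, -2.24 to -1.65), Hspa1b (-1.88, -2.13 to -1.62), Hsph1 (-1.88, -2.51 to -1.25) and Dnajb1 (-1.72, -2.08 to -1.35) were lower as well. They were named after their values were seen, and Hspa1a and Hspa1b are near-identical copies. Hspa1b was at 0.990, 4.09 and 3.06 per 10000 in cycling cells of libraries 4, 5 and 6 against 11.8, 7.23 and 11.7 in non-cycling cells. Both immediate early and heat shock genes also respond to tissue dissociation and sorting, whose part here was not tested. Interferon-stimulated genes gave 8 lower of 8 compared, 3 of them over 2-fold, against 10.8% of all compared genes. Their median was -0.97 within libraries and -0.80 within depth quartiles. Irf7, the amplifier of type I interferon, had -1.16 (-1.98 to -0.35), while the interval of Isg15 (-0.48, -1.02 to 0.06) included equality.

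Of the 15 lowest ratios with 1 direction in libraries 4, 5 and 6, 13 rested on 1 UMI in cycling cells (Whamm, Pdcd2l, Trav12-2, Tbc1d17, Scml4, Nebl, Foxp4, Maml2, Pik3c3, Fbxl20, Hps1, Slc24a5 and AW011738), and Klrk1, the receptor NKG2D, had 2 UMIs (-3.40, -5.54 to -1.26). The exception was Ccl5, a chemokine of cytotoxic and memory T cells, with 80 UMIs in 21 cycling cells against 3029 in non-cycling cells. It was at 0.124, 1.74 and 0.900 per 10000 in cycling cells of libraries 4, 5 and 6 and 10.6, 15.4 and 21.1 in non-cycling cells, with a log2 ratio of -3.21 (-3.52 to -2.89) within libraries and -2.52 within depth quartiles. In CD8+ cells, where Ccl5 is abundant, the ratio was -1.37. The cells with 1 rule gene held 21.3 Ccl5 UMIs per 10000, near the 16.2 of non-cycling cells, and those with 2 rule genes held 1.27. After thinning, Ccl5 was found in 11.8% (6.23 to 19.6%) of cycling and 21.5% (18.6 to 24.7%) of non-cycling cells. The thinned share among naive-gene cells of any lineage was 23.5%, so free Ccl5 RNA in the droplets may have added to both groups and its part was not tested.

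Of 16 compared Th1 and cytotoxic genes, Ccl5 included, 13 were lower (5 over 2-fold) and 3 higher (0 over 2-fold). Over all compared genes, 10.8% were over 2-fold lower. The list had a median of -0.41 (-1.07 to -0.03). Within depth quartiles the median was -0.20 (-1.08 to 0.34), an interval that includes 0, and leaving out 1 library gave -0.71 to -0.10. The tissue-residency chemokine receptor Cxcr6 was at 1.55, 0.871 and 1.26 per 10000 against 3.58, 2.67 and 3.28 (-1.42, -1.83 to -1.02), Ly6c2 had -1.65 (-2.10 to -1.21) and the Th1 homing receptor Cxcr3 had -1.03 (-1.64 to -0.43). Ifng was at 6.06, 3.64 and 1.80 per 10000 in cycling cells of libraries 4, 5 and 6 and 4.74, 6.25 and 6.23 in non-cycling cells, higher in library 4 and lower in libraries 5 and 6 (-0.40, -0.62 to -0.18). The Th1 factor Tbx21 had -0.27 (-0.91 to 0.38). Gzma, a granzyme, had 0.60 (0.30 to 0.90), but 5 cells held 81.2% of its 149 UMIs, and Gzmb had -0.15 (-0.42 to 0.11).

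Th2 genes had no common direction, with 5 of 10 compared genes higher and 5 lower and a median of -0.11 (-0.96 to 0.89). Within depth quartiles the median was -0.41 (-0.98 to 0.04), where the interval lay below 0 for 3 genes and above 0 for 0, against 3 and 3 within libraries. Gata3, the Th2 master factor, was at 2.54, 3.22 and 3.60 per 10000 in cycling cells of libraries 4, 5 and 6 and 2.83, 2.92 and 3.09 in non-cycling cells (0.01, -0.26 to 0.29). Il13 was at 4.45, 1.29 and 1.44 against 2.04, 1.04 and 0.508 and had 0.89 (0.56 to 1.22) within libraries and -0.14 within depth quartiles. Its 114 UMIs lay in 15 cells, and the top 5 cells held 79.8% of them. Il5 had 0.49 (-0.14 to 1.12, and -0.62 within depth quartiles) and Il4 -0.31 (-0.74 to 0.11). Ccr8, a chemokine receptor known from Th2 and tumor Treg cells, was higher in each of the 3 libraries at 0.68 (0.20 to 1.16), with 0.41 within depth quartiles, and was found in 22 of 102 cycling cells. After thinning and pooled over libraries, Ccr8 was found in 6.86% (2.80 to 13.6%) of cycling and 6.03% (4.41 to 8.01%) of non-cycling cells, and in 1.21% of naive-gene cells. In libraries 4 to 6 alone the thinned shares were 5.21% (1.71 to 11.7%) of cycling and 5.93% (4.09 to 8.26%) of non-cycling cells, so the direction was not kept. Cyp11a1, the first enzyme of steroid synthesis, had 1.27 within libraries and -0.11 within depth quartiles on 14 UMIs in 6 cells. The repair cytokine Areg (-1.05, -1.41 to -0.69) and the IL-33 receptor Il1rl1 (-0.96, -1.62 to -0.31) were lower.

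Cell by cell, 28 of the 102 cycling cells held a UMI of Il4, Il5 or Il13, 49 held Ifng, 11 held both kinds and 36 held neither. Cycling cells of both cytokine kinds were present in libraries 4, 5 and 6, with 8, 16 and 4 cells of the type 2 genes and 13, 29 and 6 cells of Ifng. Thinned to 1000 UMIs and pooled over libraries, a type 2 gene was found in 14.7% (8.47 to 23.1%) of cycling and 9.18% (7.18 to 11.5%) of non-cycling cells, and Ifng in 25.5% (17.4 to 35.1%) and 21.4% (18.4 to 24.5%). The intervals overlapped, so no difference in the share of cytokine-positive cells was detectable with 102 cells. In libraries 4 to 6 alone the shares were 15.6% (9.02 to 24.5%) and 11.9% (9.25 to 14.9%) for the type 2 genes and 26.0% (17.6 to 36.0%) and 24.3% (20.7 to 28.1%) for Ifng. Of the single cytokines pooled over libraries, Il13 stood farthest apart, at 8.82% (4.11 to 16.1%) against 2.88% (1.79 to 4.36%), with intervals that met. In libraries 4 to 6 alone Il13 was at 9.375% (4.38 to 17.1%) against 3.70% (2.28 to 5.66%), with overlapping intervals. The thinned Il13 background in naive-gene cells, also pooled over libraries, was 0.214%.

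Genes shared with Treg cells differed little. Of 10 compared Treg-associated genes, 6 were higher and 4 lower, and the median was 0.02 (-0.33 to 0.42). Over 2-fold higher were 0 and over 2-fold lower 1 (Il10, by a floor, as it had 0 UMIs in cycling cells). Within depth quartiles the median was -0.14 (-0.93 to 0.30), where the interval lay below 0 for 2 genes and above 0 for 0. Ctla4, an inhibitory receptor, was at 4.15, 2.35 and 3.24 per 10000 in cycling cells of libraries 4, 5 and 6 against 2.51, 2.17 and 1.66 in non-cycling cells (0.42, 0.14 to 0.69), with 0.15 within depth quartiles. Il2ra, the high-affinity IL-2 receptor chain, had 0.47 (0.11 to 0.83) within libraries and about 0 within depth quartiles, so no difference remained at matched depth. Tgfb1 had 0.33 (0.06 to 0.60) and 0.30. Il10 was found in 0 of 102 cycling cells (a floor of 3 counts puts the upper limit at 2.94%) and in 10 of 1021 non-cycling cells (0.979%), so a difference was not detectable at this number of cells.

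Receptors of inhibition had no common direction, and those of costimulation had ratios below 0 but under 2-fold within libraries. Of 10 compared inhibitory receptors, 3 were higher (0 over 2-fold) and 7 lower (2 over 2-fold, against 10.8% of all compared genes). Their median was -0.44 (-1.35 to 0.36), an interval that includes 0. Pdcd1, encoding PD-1, was at 1.24, 0.985 and 0.540 per 10000 against 1.78, 1.75 and 1.75 (-0.55, -0.96 to -0.14), and Tigit had -0.59 (-0.95 to -0.24) within libraries and -0.02 within depth quartiles. Vsir, encoding VISTA, a receptor of resting T cells, was over 2-fold lower (-1.57, -2.59 to -0.55). All 10 compared costimulatory receptors had log2 ratios below 0, with 0 over 2-fold lower, with a median of -0.37. Within depth quartiles the median was also -0.37 (-0.93 to -0.29), with 1 gene over 2-fold lower. The interval lay below 0 for 8 genes there, against 4 within libraries. Tnfrsf4, encoding OX40, was at 9.28, 8.82 and 7.02 per 10000 against 7.82, 9.57 and 7.80 (-0.02, -0.18 to 0.14), and the difference was smaller than its counting error. Icos had -0.45 (-0.64 to -0.26). Of 15 genes of the common gamma chain cytokine pathway, 13 were lower and 2 higher, led by Il7r and the feedback inhibitor Socs3 (-1.54, -2.36 to -0.72), with the shared receptor chain Il2rg at -0.62 (-0.81 to -0.42) and Il2rb at -0.29 (-0.55 to -0.03).

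**Figure D5:**
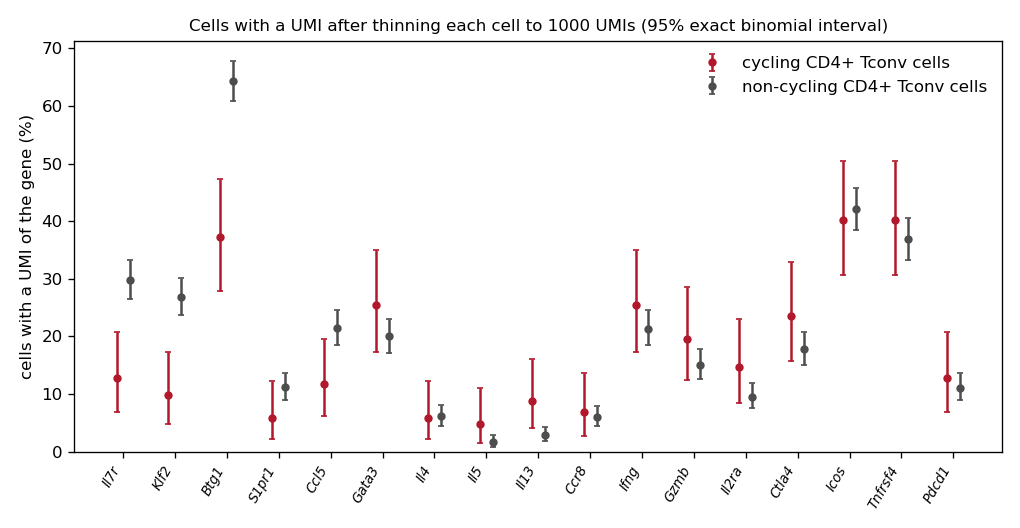
Share of cells with a UMI of each gene (y axis, %) after thinning each cell to 1000 UMIs, for 102 cycling (red) and 730 non-cycling (grey) CD4+ Tconv cells pooled over libraries, with exact 95% binomial intervals. Il7r, Klf2 and Btg1 were found in fewer cycling cells, while the intervals of Gata3, Ifng, Icos and Pdcd1 overlapped.

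The medians of the growth and metabolism lists lay between -0.03 and 0.54 within libraries and between -0.06 and 0.19 within depth quartiles, against -0.08 and -0.07 over all genes. Of 17 compared genes of MYC and ribosome biogenesis, 15 were higher and 3 over 2-fold, with a median of 0.54 (0.19 to 0.85) within libraries and 0.19 within depth quartiles. Myc itself had 0.08 (-0.64 to 0.80), and the nucleolar proteins Npm1 and Nop58 had 0.60 (0.43 to 0.76) and 1.02 (0.62 to 1.42). Of 76 oxidative phosphorylation genes 56 were higher and 0 over 2-fold, with medians of 0.24 and 0.06. Of 16 glycolysis genes 0 were past 2-fold (medians 0.12 and -0.06), and Ldha, lactate dehydrogenase, had 0.09 (-0.04 to 0.23). The 14 proteasome genes had medians of 0.34 and 0.07, and the 80 cytosolic ribosomal protein genes -0.03 and -0.06. The 13 T cell receptor complex genes had a median of -0.19, with 0 past 2-fold. Of 9 p53 target genes 8 were lower, 3 over 2-fold, against 10.8% of all compared genes. Among the 3 were the proapoptotic Bbc3 (-2.64, -4.88 to -0.41) and Trp53inp1 (-1.67, -2.70 to -0.64), while Mdm2 had 0.13 (-0.45 to 0.70).

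Cycling CD8+ cells, chosen by the same 5 genes and compared with non-cycling CD8+ cells of the same libraries, gave 801 of 9876 genes (8.11%) over 2-fold higher and 608 (6.16%) over 2-fold lower. Their list medians were 4.08 for G2/M, 1.80 for S phase, 3.04 for histones and -0.81 for quiescence and homing genes, beside 4.22, 1.71, 2.73 and -0.90 in CD4+ Tconv cells. Medians farther apart were those of immediate early (-0.28 against -0.997) and inhibitory receptor genes (0.05 against -0.44). Tnfrsf9, encoding 4-1BB, had 0.73 in CD8+ and -0.33 in CD4+ Tconv cells, and Cd69 had -0.03 and -0.93. The values stand side by side, and no difference between the lineages was tested.

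Among the cycling cells of libraries 4, 5 and 6, the summed level of the quiescence and homing list was 19.9, 19.8 and 11.5 per 10000, against 42.3, 37.1 and 35.5 in non-cycling cells. Histone UMIs were at 35.3, 59.99 and 52.8 per 10000 in cycling cells, lowest in library 4, where the G2/M level was 180. The Th2 list summed to 15.7, 9.88 and 11.3 per 10000 in cycling cells and 16.9, 10.6 and 11.6 in non-cycling cells, so library 4 was highest in both groups. Th1 and cytotoxic genes summed to 29.3, 27.2 and 18.4 in cycling cells and 44.7, 51.5 and 58.3 in non-cycling cells, with no overlap. Over all libraries, Ccl5 gave 80 of the 1370 UMIs of this list in cycling cells and 3029 of 8693 in non-cycling cells. Pooled, the list was at 27.0 per 10000 in cycling and 46.6 in non-cycling cells, where Ccl5 alone was at 16.2. Most of the gap between these pooled sums thus came from this 1 gene. Libraries 4, 5 and 6 hold 96 of the 102 cells, and the 6 cells of libraries 1 to 3 are too few to describe on their own.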

How the data were processed

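The deposited table holds raw UMI counts of 14597 genes in 12818 cells, which the authors made from 10x 5′ libraries mapped to mm10, joined over 6 libraries and filtered in Seurat by genes per cell and mitochondrial share. The submitters' processing notes, which also name Cell Ranger and Seurat, give mm9 as the build. No coordinates come from the table. No doublet caller was run here, and cells with both Cd4 and Cd8 UMIs were left out by the rule. Of the 6 samples, 3 received PBS and 3 received DTx. Of the cells, 0 could be mapped to a sample, so no p-value, SD or treatment comparison is given.

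Ratios of UMI shares between cycling and non-cycling cells were stratified by library (Mantel-Haenszel, with Greenland-Robins 95% intervals), for genes with at least 20 UMIs over both groups, leaving out the 5 rule genes and the gating genes. A gene was called when past 2-fold. A gene at 0 in 1 group got a bound from a floor of 3 counts over that group. Levels are UMIs per 10000. The interval of a list median is over the order of its genes, which are not independent. Shares of cells have exact Clopper-Pearson 95% intervals. Intervals and floors cover counting error only. Thinning drew 1000 UMIs per cell without replacement (seed 7), leaving out shallower cells.

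Named genes are the rule genes, list members, and the 15 highest and 15 lowest ratios among genes in no cell cycle list. For these ratios the direction had to be the same in every library with at least 10 cells of both groups and a UMI of the gene. Members and lists were chosen with earlier results of these data known. Alternatives changed the number of rule genes, the depth strata, the filter, the totals, the reference cells and the libraries. Promoters came from RefSeq tables (GRCm38.p6), gene positions from GENCODE on GRCm38. Scripts ran in Python 3.11.15 with numpy 2.4.6, scipy 1.17.1 and pandas 2.3.3 and were tested on simulated data. Values of some list members are not reported here.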

Additional observations from a re-analysis of the deposited data

Results flagged for a closer look

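Cells that met the 5-gene rule were also found outside the CD4+ Tconv and CD8+ gates, in data that the comparisons above did not use. Of 6838 cells in which neither Cd4 nor Cd8a, Cd8b1 or Foxp3 was detected, 167 met it (2.44%, exact 95% interval 2.09 to 2.84%), at a median of 956.5 UMIs per cell over that gate. Some of these may be CD4+ Tconv cells whose Cd4 transcripts were not captured, which was not tested.

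Of 163 cells with both Cd4 and Cd8 UMIs, 33 met the rule (20.2%, 14.4 to 27.2%), at a median of 4223 UMIs, and doublets among them were not tested. Of 97 Foxp3+ cells, 4 met it (4.12%, 1.13 to 10.2%). All but 1 of the Foxp3+ cells (96 of 97) and all 4 of the cycling ones lay in libraries 1 to 3, where 6 of 419 CD4+ Tconv cells met the rule, and the difference was not tested.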

How the results depend on the processing

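No paired analysis was possible because library numbers are not linked to the labelled samples and no result comes from a test. The ratios were stratified by library. The share of cycling CD4+ Tconv cells (8.46%) was 15.3% with at least 1 rule gene, 6.14% with at least 3, 4.25% and 1.06% after thinning to 1000 and 500 UMIs, and 5.02% as the median of libraries. Leaving out 1 library at a time gave 5.15% (without library 5) to 9.49%. Genes over 2-fold higher numbered 280 with at least 50 UMIs and 1573 with no minimum, against 595, and 348 were over 2-fold lower with at least 50 UMIs, against 810. Leaving out 1 library gave 485 to 572 higher and 685 to 930 lower. Within depth quartiles, and then within 10 depth strata per library, the medians were 3.39 and 3.33 for G2/M, -0.52 and -0.44 for quiescence and homing, and -0.77 and -0.74 for immediate early genes. The 10 strata gave 0.062 for Myc and ribosome biogenesis. Without cells over 2000 genes the quiescence and homing median was -0.60. Leaving out 1 library, immediate early genes ranged from -1.28 to -0.69 (without library 4) and histones from 1.84 (without library 5) to 2.92. Cdca7 turned to -0.015 and -0.35, and Cyp11a1 to -0.11 and -0.19, under the same strata. The cause was not tested. The 10 depth strata, the totals without cell cycle genes, the reference without naive-gene cells, libraries 4 to 6 alone (for ratios and for thinned shares) and the limit of 2000 genes were chosen after seeing the data. Of list medians over all alternatives, 378 stayed within the interval over their genes and 13 did not. Of single genes, 7209 values stayed within their counting interval, 422 did not and 4 turned. Most of these changes came from matching by depth. Within depth quartiles 401 genes stayed, 115 did not and 2 turned, and within the 10 depth strata 361, 155 and 2. With 102 cells, genes of few UMIs and shares of rare cytokines were limited by counting error.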
